A study of Mus musculus with 6 samples.

Results

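*Kif26b*, its paralog *Kif26a* and 8 genes of the Wnt5a-Ror and planar cell polarity pathway (*Wnt5a*, *Ror1*, *Ror2*, *Ptk7*, *Vangl1*, *Vangl2*, *Celsr1* and *Prickle1*) were followed by symbol through read counts of 6 mouse RNA libraries. All 10 were found among the 56884 genes counted. Of the 10, 7 had enough counts for a treatment test, and *Kif26b* was the 1 of them called different. Among all genes tested, 2.15% were called at day 6 and 3.98% over both days. The fitted level of *Kif26b* was 16.3-fold lower at day 6 in the libraries labelled 4-OHT. The receptors and polarity genes around it fell into a well-expressed set of 5, *Ror2*, *Ptk7*, *Vangl1*, *Vangl2* and *Celsr1*, in which no difference passed the test, and a set of 4 with 0 to 43 counts per library, *Wnt5a*, *Ror1*, *Kif26a* and *Prickle1*.

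The libraries came from small intestinal organoids, epithelial cultures, of mice carrying Villin-CreERT2, Lgr5-EGFP-IRES-CreERT2 and Ythdf2 fl/fl. CreERT2 is a recombinase that 4-hydroxytamoxifen (4-OHT) activates. It was driven here by the villin promoter, active throughout the intestinal epithelium, and by the *Lgr5* locus of stem cells, and it can delete the floxed part of *Ythdf2*, which encodes a reader of m6A-modified RNA. Cells positive for Lgr5-GFP were sorted after treatment with 0.5 µM 4-OHT or with ethanol (EtOH), the vehicle. Both groups therefore shared all alleles before treatment. No group received 4-OHT without the floxed allele or without CreERT2. Effects of 4-OHT or of the recombinase therefore cannot be told apart from those of a *Ythdf2* deletion. Each label had 2 libraries at day 6 and 1 at day 4. The labels do not say whether replicates came from separate mice or cultures, so p-values measure the spread between these libraries, which may be technical.

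WNT5A is a secreted ligand that, in the noncanonical branch of Wnt signalling, binds the receptor tyrosine kinases ROR1 and ROR2 and acts on cell shape and movement rather than through β-catenin. KIF26B is an atypical kinesin whose protein is known to be degraded in response to WNT5A-ROR signalling. VANGL, CELSR and PRICKLE proteins belong to the core planar polarity machinery, which aligns cells within a sheet, and in the intestine *Wnt5a* is known mainly as a product of the mesenchyme beneath the epithelium.

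Because the 2 kinesin genes are paralogs, their sequences were compared first, to see whether reads of one could be counted for the other. The coding sequence of *Kif26b* has 6336 bases and that of *Kif26a* 5643 in the GENCODE M39 canonical transcripts. The closest ungapped stretch of 60 bases lies in exon 12 of both genes, at chr1:178745597-178745656 (plus strand, GRCm39, bases 5692 to 5751 of the coding sequence) and at chr12:112144689-112144748 (plus strand, bases 4942 to 5001). It is printed 5′ to 3′ with the bases that are identical in both genes in capitals.
Kif26b: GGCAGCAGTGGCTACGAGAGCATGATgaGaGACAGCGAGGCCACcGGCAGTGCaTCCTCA
Kif26a: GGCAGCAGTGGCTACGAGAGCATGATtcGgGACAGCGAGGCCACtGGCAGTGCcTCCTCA
Even here 5 of 60 bases differ. The longest run shared by the coding sequences is 26 bases, and the full transcripts share 0 runs of 31 bases, so a read of that length or longer without errors belongs to 1 of the 2 genes. *Kif26b* (ENSMUSG00000026494) lies on chromosome 1 at 178356690 to 178766765. Of its exon bases, 7.51% overlap *Gm16564* on the opposite strand, a gene with 0 counts in all 6 libraries. *Kif26a* (ENSMUSG00000021294; chromosome 12, 112112642 to 112148181) has no such overlap.

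The sequence just before the *Kif26b* transcript was also read from GRCm39, because the series title joins this gene to Wnt signalling. The 250 bases at chr1:178356440-178356689 (plus strand, 68.4% G or C) are shown with the core sequence of the Wnt effectors TCF and LEF, CTTTGA, in capitals.
Kif26b upstream: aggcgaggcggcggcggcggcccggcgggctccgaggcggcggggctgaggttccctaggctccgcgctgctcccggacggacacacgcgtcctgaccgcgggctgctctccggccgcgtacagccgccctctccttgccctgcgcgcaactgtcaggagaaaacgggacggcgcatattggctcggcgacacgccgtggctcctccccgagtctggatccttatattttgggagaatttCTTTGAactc
CTTTGA was searched on both strands (TCAAAG on the other). It occurs 1 time, beginning 10 bases before the transcript start. The same window held it in 3 of the 10 genes (*Kif26b*, *Prickle1* and *Ror1*), in 5 of 47 further genes of the pathway, and in 14.1% of 21770 protein-coding promoters. A match is a description of the letters, not of binding.

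The libraries held 14345379 to 21461835 gene counts. *Ythdf2*, the gene that 4-OHT was to delete, had 1312 to 1563 counts in the 3 libraries labelled EtOH and 2466 to 4463 in the 3 labelled 4-OHT. This direction is opposite to a loss of transcript, and counts per gene do not show whether the floxed exons were present. Groups are therefore named by their labels. The epithelial identity was checked with markers, as levels in CPM (counts relative to the library's total, scaled by TMM, which corrects for composition). All 7 epithelial markers stood at 1 CPM or more in every library, and *Lgr5*, the sorted gene, at 209 to 369 CPM. Of 10 mesenchymal and muscle markers, *Vim* and *Pdgfrb* reached 1 CPM in every library. The defining collagen and matrix genes did not: *Col3a1* and *Dcn* had 0 counts in all day 6 libraries and *Lum* in all 6. *Col1a1* was counted in all 6 libraries, with 4 to 13 counts in each (0.214 to 0.884 CPM). The summed mesenchymal level was 6.22 to 15.6 CPM with EtOH and 11.2 to 14.4 CPM with 4-OHT. The summed level of 4 stem cell markers was 2445 to 4133 CPM with EtOH and 1652 to 1962 CPM with 4-OHT, and *Olfm4* made up most of it (3308 of 4133 CPM in EtOH replicate 1 of day 6). *Olfm4* was the 1 stem cell marker of 4 called lower at day 6 by edgeR (adjusted p under 0.05), beside 0.171% of all genes tested. *Olfm4* and *Smoc2* were lower with 4-OHT without overlap between the labels over 6 libraries, as were 9.02% of all genes tested. *Lgr5* and *Ascl2* overlapped, and the day 6 log2 fold change of *Ascl2* was 0.14. The sum of 4 enterocyte markers was 147 to 276 CPM with EtOH and 495 to 1440 CPM with 4-OHT. At day 6, 4 of 4 were called higher, beside 1.98% of all genes tested. The sum of 3 tuft cell markers was 25.9 and 14.9 CPM with EtOH and 7.73 and 5.63 CPM with 4-OHT at day 6, and 7.66 and 5.10 CPM at day 4. Of these, 0 passed at day 6 by edgeR, with log2 fold changes of −2.25 for *Dclk1* (adjusted p 0.0548), −1.66 for *Pou2f3* (0.0829) and −1.33 for *Trpm5* (0.135). Over both days *Pou2f3* passed (−1.45, adjusted p 0.048, edgeR), where 0.626% of all genes tested were called lower.

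**Figure D1:**
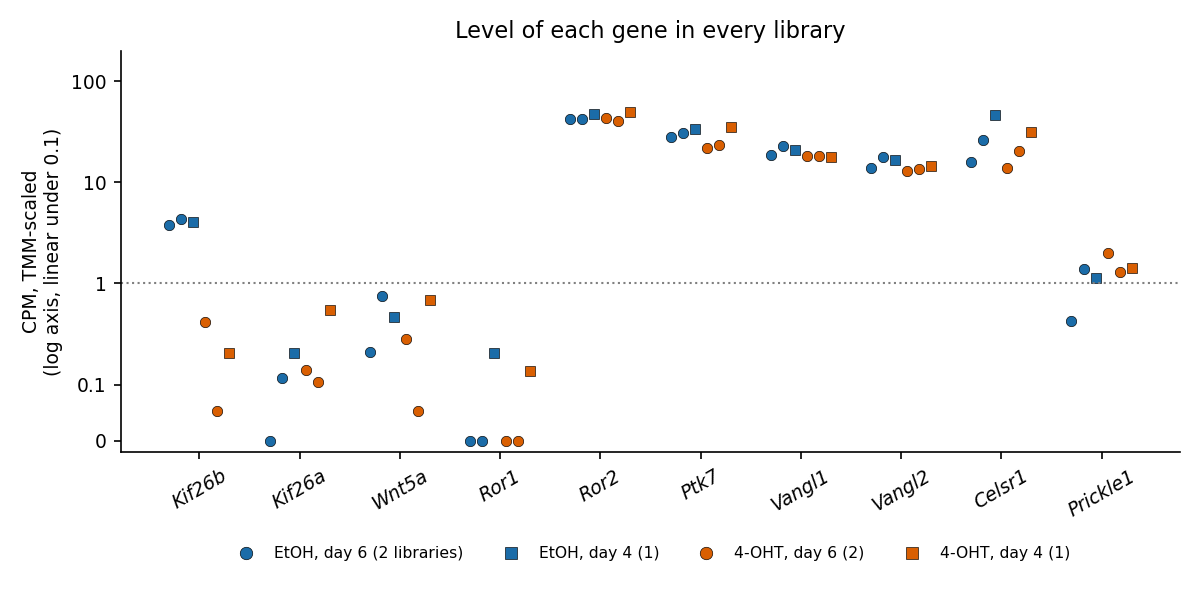
Level of the 10 genes in every library, in TMM-scaled CPM on a log axis that is linear under 0.1; each point is 1 library, circles for day 6 and squares for day 4, blue for EtOH and orange for 4-OHT, and the dotted line marks 1 CPM. *Kif26b* is the gene whose 2 colours stand far apart, at 3.82 to 4.35 CPM with EtOH and 0.0536 to 0.419 CPM with 4-OHT.

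*Kif26b* counts with EtOH were 72 and 75 at day 6 and 78 at day 4. The libraries labelled 4-OHT had 9 and 1 at day 6 and 3 at day 4. As levels, these were 3.82, 4.35 and 4.01 CPM against 0.419, 0.0536 and 0.204 CPM. The 3 EtOH libraries were close to one another, and all 3 4-OHT libraries lay far below them without overlap. At day 6 the means were 4.08 ± 0.379 and 0.236 ± 0.259 CPM (SD, n = 2 each). On the log2 scale this was a fitted difference of −4.03 (SE 0.67, 95% interval −5.52 to −2.53). Its adjusted p was 0.0139 in edgeR's quasi-likelihood F test, adjusted by Benjamini-Hochberg over 14066 genes. In that comparison 2.15% of all genes tested were called (adjusted p under 0.05), 0.171% as lower and 1.98% as higher. The call was lost without EtOH replicate 1 (adjusted p 0.0768) or EtOH replicate 2 (0.0541) by the same edgeR test. The size rests on a few reads of 4-OHT replicate 1, since the log2 fold change was −6.08 without it and −3.27 without 4-OHT replicate 2.

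Summed over the day 6 libraries, 10 counts with 4-OHT stood against 147 with EtOH. The ratio, scaled for library size, was 0.0612 (exact 95% interval 0.0287 to 0.116, for counting error alone). The day 4 libraries gave a ratio of 0.0509 (0.0103 to 0.154), from 3 counts against 78, with 1 library per label and no test. At day 4, 2.2% of 14060 genes were at least 2-fold lower with 4-OHT and 5.6% at least 2-fold higher. Over all 6 libraries with day as a term the fitted difference of *Kif26b* was −4.08 on the log2 scale (SE 0.52, adjusted p 0.0025 by edgeR). There 3.98% of the genes tested were called, 0.626% as lower and 3.36% as higher, and this call held without each library in turn (edgeR adjusted p 0.0027 to 0.016).

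Between the days no change in this difference was detected, with a wide error. The *Kif26b* interaction of treatment with day was 0.21 (SE 1.23) on the log2 scale (adjusted p 1 by edgeR). The sums of the enterocyte and stem cell markers, the latter mainly *Olfm4*, did not overlap between the same labels, and the tuft cell sum did not at day 6. The sums of 3 goblet, 3 Paneth and 3 enteroendocrine cell markers overlapped between the labels. At day 6, 1 of the 3 goblet markers was called by edgeR, and 0 of the Paneth or enteroendocrine markers, beside 2.15% of all genes tested. The goblet marker *Clca1* was at 25.8 and 28.4 CPM with EtOH and 78.4 and 49.5 CPM with 4-OHT at day 6. *Muc2* and *Tff3* overlapped there. In the day 4 pair the goblet, Paneth and enteroendocrine sums were higher with 4-OHT, at 811 against 388, 1109 against 260 and 204 against 46.8 CPM. The part of all these marker sums in the *Kif26b* result was not tested. The summed mesenchymal level, mainly *Vim* (12.3 of 15.6 CPM in EtOH replicate 1 of day 6), overlapped between the labels. At day 6 its 2 markers at 1 CPM or more in every library differed in opposite directions without overlap. *Pdgfrb* was at 2.49 and 1.16 CPM with EtOH and 3.35 and 3.81 CPM with 4-OHT. *Vim* was at 12.3 and 10.7 CPM with EtOH and 9.78 and 9.87 CPM with 4-OHT. Of all genes tested at day 6, 38.9% did not overlap. In sorted bulk samples, fewer cells with a transcript and less of it per cell cannot be told apart.

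*Kif26a* encodes the other kinesin of the subfamily, known for a role in the enteric nervous system. At day 6 it had 0 and 2 counts with EtOH and 3 and 2 with 4-OHT. At day 4 it had 4 with EtOH and 8 with 4-OHT. Its level was at most 0.544 CPM, in the day 4 library labelled 4-OHT, and the groups overlapped. The day 4 ratio of 2.65 had an exact 95% interval of 0.709 to 12.01, which includes equality. *Kif26a* did not pass the filter on low counts for the treatment tests. Its 0 counts in EtOH replicate 1 of day 6 allow up to 0.159 CPM (3 counts).

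The ligand was hardly counted. *Wnt5a* had 4 and 13 counts with EtOH and 6 and 1 with 4-OHT at day 6, with 9 and 10 counts in the day 4 EtOH and 4-OHT libraries. Its level ran from 0.0536 to 0.754 CPM, under 1 CPM in all 6 libraries, and the groups overlapped. It did not pass the filter on low counts for the treatment test. Summed over day 6, 7 counts with 4-OHT against 17 with EtOH gave a ratio of 0.370 (exact 95% interval 0.130 to 0.940). The day 4 ratio went the other way, at 1.47 (0.537 to 4.09). These intervals cover counting error alone and leave out the spread between replicates. Of the exon bases of *Wnt5a*, 4.46% overlap *Gm2670*, which had 0 counts throughout. The 4 further ligands of the wider list described below were also scarce. *Wnt4*, *Wnt5b* and *Wnt11* were under 1 CPM in all libraries, and *Wnt9b* reached that level in 1 library.

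The 2 receptors for the ligand differed from each other in level. *Ror1* had 0 counts in all 4 day 6 libraries, which allows up to 0.140 to 0.174 CPM per library, and 4 counts with EtOH and 2 with 4-OHT at day 4. *Ror2* had 799 and 725 counts with EtOH and 934 and 753 with 4-OHT at day 6. The day 4 counts were 927 with EtOH and 736 with 4-OHT. In levels, *Ror2* was 42.4 and 42.1 CPM against 43.5 and 40.4 CPM at day 6, and 47.6 against 50.1 CPM at day 4. The groups overlapped, and the log2 fold change at day 6 was −0.01 (SE 0.18, 95% interval −0.41 to 0.38) with an adjusted p of 0.992 by edgeR. A change of *Ror2* on the scale of that of *Kif26b* lies outside this interval.

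*Ptk7* encodes a pseudokinase receptor that binds Wnt ligands and takes part in planar polarity. Its levels were 28.0 and 30.9 CPM with EtOH against 21.8 and 23.5 CPM with 4-OHT at day 6, where the groups did not overlap. At day 4 the EtOH library had 33.3 CPM and the 4-OHT library 35.3 CPM. The difference of *Ptk7* did not pass at day 6 (log2 fold change −0.38, SE 0.19, adjusted p 0.583) or over both days (−0.22, SE 0.15, adjusted p 0.525), by edgeR. Among all genes tested at day 6, the 2 groups of libraries did not overlap in 38.9%.

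*Vangl1* and *Vangl2* encode the membrane proteins at the centre of the polarity complex. *Vangl1* stood at 18.8, 22.8 and 21.1 CPM in the EtOH libraries (day 6 replicates 1 and 2, then day 4) and at 18.3, 18.1 and 18.0 CPM in the 4-OHT libraries. All 3 of the latter lay below all 3 of the former, by a narrow margin, as they did in 9.02% of the genes tested (20.2% did not overlap in either direction). The log2 fold change of *Vangl1* over both days was −0.20 (SE 0.14, adjusted p 0.564 by edgeR). *Vangl2* stood at 13.8, 17.8 and 16.4 CPM against 12.9, 13.5 and 14.4 CPM, with overlap. Its log2 fold change over both days was −0.24 (SE 0.16, 95% interval −0.60 to 0.13), with an adjusted p of 0.546 by edgeR.

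*Celsr1* encodes an atypical cadherin that joins polarity complexes of neighbouring cells. Its levels differed between the days and between libraries of the same label and day. The day 6 levels were 15.8 and 25.9 CPM with EtOH and 13.9 and 20.4 CPM with 4-OHT, and the day 4 levels were 46.4 CPM (EtOH) and 31.8 CPM (4-OHT). Both day 4 libraries exceeded all 4 of day 6. The treatment log2 fold change at day 6, −0.29 (SE 0.29), did not pass (adjusted p 0.862 by edgeR), and became 0.11 without EtOH replicate 2. Over both days the value was −0.37 (adjusted p 0.455 by edgeR). The day 4 ratio of 4-OHT over EtOH was 0.685 (exact 95% interval 0.611 to 0.766, for counting error alone), with 1 library per label and no test.

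*Prickle1* encodes a cytoplasmic partner of the VANGL proteins. Its counts were 8 and 24 with EtOH and 43 and 24 with 4-OHT at day 6. Those of day 4 were 22 with EtOH and 21 with 4-OHT. The lowest value, 0.424 CPM, was EtOH replicate 1 of day 6, and the highest, 2.003 CPM, was 4-OHT replicate 1, with the others between 1.13 and 1.43 CPM and the groups overlapping. The day 6 log2 fold change was 0.86 (SE 0.64, 95% interval −0.56 to 2.29), with an adjusted p of 0.77 by edgeR. Counting error alone, over the summed day 6 counts of 67 against 32, gave a ratio of 1.88 (exact 95% interval 1.22 to 2.97), which leaves out the spread between replicates.

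Of the 10 genes, 7 passed the filter for the treatment test, and 1, *Kif26b*, was called at day 6 and over both days. Among all genes tested, 2.15% were called at day 6 and 3.98% over both days. The median log2 fold change of the 7, *Kif26b* included, was −0.26 at day 6, beside −0.01 for all genes tested. For the 36 genes tested of the wider list described below, the median was −0.03. *Kif26a*, *Ror1* and *Wnt5a* were not tested.

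**Figure D2:**
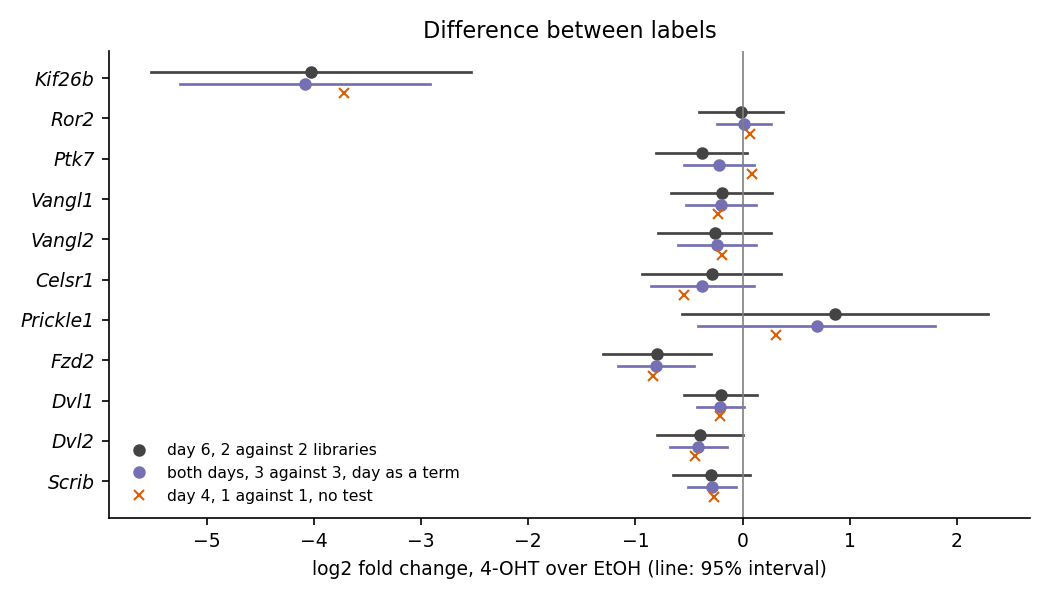
Log2 fold change of the libraries labelled 4-OHT over those labelled EtOH, for the 7 genes that could be tested and the 4 further pathway genes whose 3 4-OHT libraries all lay below the 3 EtOH libraries; points are fitted values with unadjusted 95% intervals, at day 6 (grey) and over both days (purple), and crosses are day 4 values with no test. *Kif26b* stands at −4.03 and −4.08, and *Fzd2* at −0.80 and −0.81.

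Levels were compared between genes per length, as RPKM (TMM-scaled CPM per 1 kb of exons), averaged over the 6 libraries. *Ror2* was the most abundant of the 10, at 9.57 RPKM, followed by *Ptk7* at 4.33, *Celsr1* at 2.20, *Vangl2* at 2.12 and *Vangl1* at 1.92. The 6 values of *Ror2* (8.71 to 10.8) lay above those of *Ptk7* (3.28 to 5.31). The ranges of *Ptk7* and *Celsr1* overlapped, as did those of *Celsr1* and the *Vangl* genes. The other 5 were lower, with *Kif26b* at 0.146, *Prickle1* at 0.0987, *Wnt5a* at 0.0507, *Kif26a* at 0.0268 and *Ror1* at 0.00983 RPKM. The ranges of *Kif26b* and *Prickle1* overlapped. With EtOH, *Kif26b* averaged 0.276 RPKM over 3 libraries, above *Prickle1* at 0.0759, and 47.6% of 21667 protein-coding genes were lower. With 4-OHT the order of these 2 was turned, with *Kif26b* at 0.0154 and *Prickle1* at 0.121 RPKM. *Ror2* stood above 82.1% of protein-coding genes with EtOH and 82% with 4-OHT. The 5 genes from *Ror2* to *Vangl1* were at 1 CPM or more in all 6 libraries, as were 50.7% of protein-coding genes.

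A wider list of 47 genes of the noncanonical Wnt and polarity pathway was then examined by role, and 29 of them were at 1 CPM or more in every library. Receptors were plentiful, with 9 of 11 at that level. *Fzd5* (22.7 RPKM) and *Fzd7* (15.4 RPKM), which encode Frizzled receptors, were the highest among them, and *Fzd10* had 0 counts at day 6. Of the exon bases of *Fzd5*, 18.1% overlap *Gm38058* on the opposite strand. Of 10 further core polarity genes 7 were at 1 CPM or more throughout, led by *Scrib* (30.6 RPKM), an adaptor of the lateral membrane, and *Dvl1* (15.0 RPKM), a cytoplasmic transducer shared by both Wnt branches. Of the exon bases of *Dvl1*, 32.5% overlap *Tas1r3* on the opposite strand. *Prickle2*, a homologue of *Prickle1*, had 0 counts at day 6. The Fat and Dachsous cadherin system was hardly counted, with 4 of 4 genes under 1 CPM in every library and 0 counts of *Dchs1* and *Dchs2* at day 6. Cytoskeletal effectors were the most abundant, 9 of 10 at 1 CPM or more throughout, up to *Rac1*, a small GTPase, at 59.5 RPKM, though 56.1% of the exon bases of *Rac1* overlap *Daglb*. Of the 2 genes tied to *Kif26b* in the kidney, *Myh10*, a nonmuscle myosin heavy chain, averaged 0.106 RPKM, and *Sall1*, a transcription factor, had 4 counts in 1 library and 0 in the other 5.

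**Figure D3:**
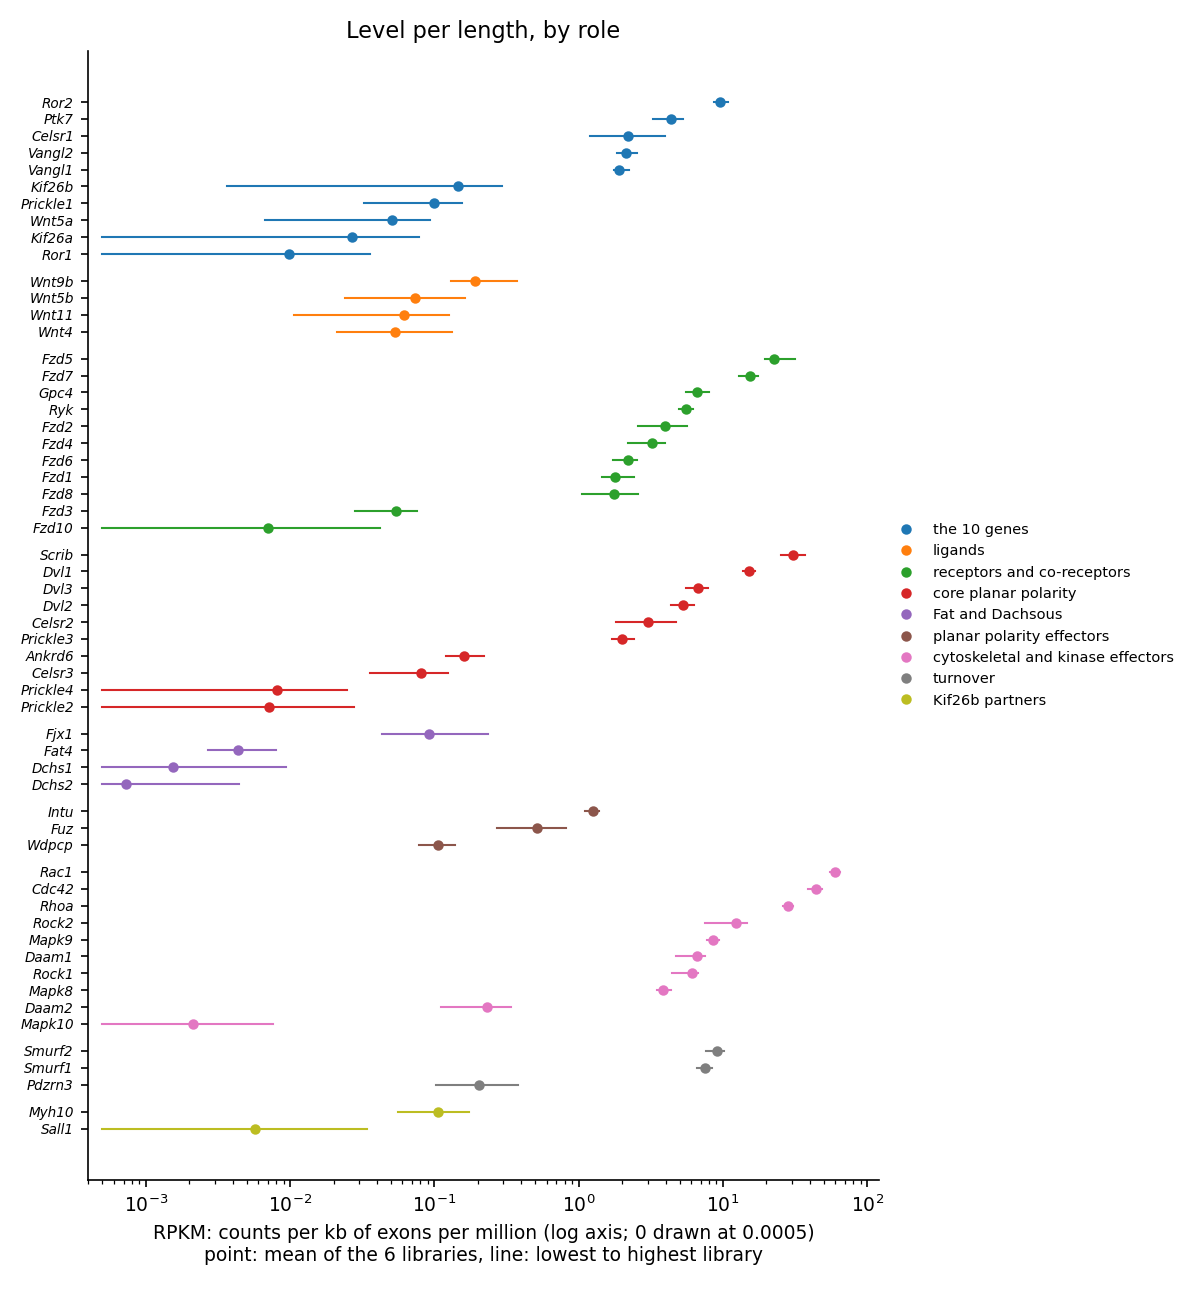
Level per length of the 10 genes and the 47 further pathway genes, grouped by role, in RPKM on a log axis; points are means of the 6 libraries, lines run from the lowest to the highest library, and values under 0.0005, 0 included, are drawn there. Ligands lie at or below 0.191 RPKM, whereas receptors reach 22.7 and cytoskeletal effectors 59.5 RPKM.

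At day 6, 0 of the 36 wider-list genes that could be tested passed by edgeR, beside 2.15% of all genes, and 2 had an unadjusted p under 0.05, beside 10% of all genes. DESeq2 also called 0. Over both days 1 of 35 passed, *Fzd2*, beside 3.98% of all genes. *Fzd2* encodes a Frizzled receptor that acts with ROR proteins in noncanonical signalling. Its levels were 20.5, 18.2 and 16.9 CPM with EtOH (day 6 replicates 1 and 2, then day 4) and 11.9, 10.5 and 9.39 CPM with 4-OHT. The groups did not overlap, and the day 4 pair differed in the same direction as the day 6 libraries. The log2 fold change of *Fzd2* was −0.81 (SE 0.16) with an adjusted p of 0.0208 over both days, and −0.80 (SE 0.23) with an adjusted p of 0.147 at day 6, both by edgeR. The call over both days was lost without each of the libraries except EtOH replicate 2 of day 6, with adjusted p from 0.0509 to 0.162, while the log2 fold change stayed between −0.87 and −0.77. With replicate number as a block, *Fzd2* also passed at day 6 (adjusted p 0.021, edgeR).

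Among the 35 wider-list genes tested over both days, the 3 libraries labelled 4-OHT lay below the 3 labelled EtOH for 4, *Fzd2*, *Dvl1*, *Dvl2* and *Scrib*, and above them for 0. These are 11.4% of the 35, beside 9.02% of all genes lower and 11.1% higher. *Dvl2*, a homologue of *Dvl1*, stood at 39.3, 39.0 and 42.1 CPM with EtOH against 29.3, 30.2 and 30.95 CPM with 4-OHT. Its log2 fold change over both days of −0.41 (SE 0.12) did not pass, with an adjusted p of 0.102 by edgeR, and 22.6% of its exon bases overlap *Acadvl*. *Dvl1* (−0.21, SE 0.10) had an adjusted p of 0.352 and *Scrib* (−0.28, SE 0.10) one of 0.202 by edgeR. The 9 cytoskeletal and kinase effectors tested had log2 fold changes between 0.01 and 0.33 over both days, none past the threshold.

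The likeness of other genes to *Kif26b* was described by the Pearson correlation of log2 CPM over the 6 libraries, across 14060 genes. The *Kif26b* values fall into 2 clusters that are the labels, so r mainly measures how cleanly a gene separates them. Of all genes, 5.32% had an r of at least 0.8 and 7.56% an r of −0.8 or less. Among the 10 genes, *Vangl1* was most like *Kif26b* (r = 0.78), followed by *Vangl2* (0.68), *Ptk7* (0.41), *Celsr1* (0.24), *Ror2* (0.01) and *Prickle1* (−0.49). The order depends on single libraries. Without the day 4 library labelled 4-OHT, *Ptk7* had 0.853 and stood above *Vangl1* at 0.736. Over the 6 sets that leave out 1 library, r ran from 0.732 to 0.941 for *Vangl1*, from 0.566 to 0.877 for *Vangl2*, from 0.160 to 0.853 for *Ptk7*, from −0.124 to 0.512 for *Celsr1* and from −0.517 to 0.518 for *Ror2*. An r as high as that of *Vangl1* was reached by 6.31% of genes. In the wider list *Fzd2* (0.95), *Dvl1* (0.94) and *Dvl2* (0.93) had the highest values.

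**Figure D4:**
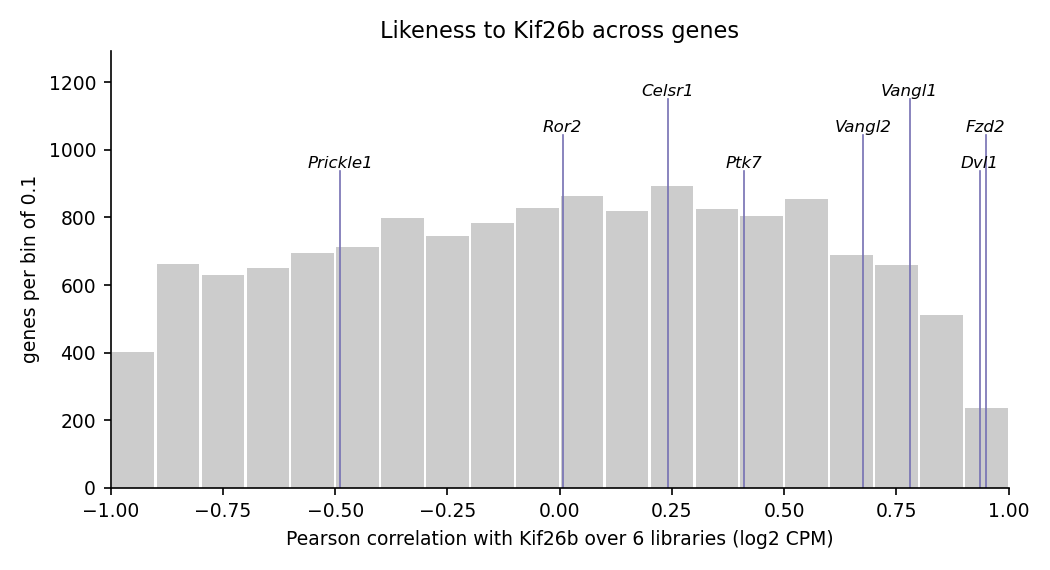
Number of genes by their Pearson correlation with *Kif26b* over the 6 libraries, in bins of 0.1 (grey bars), with lines at the values of the 6 other genes tested and of *Fzd2* and *Dvl1*. *Vangl1* (0.78) and *Vangl2* (0.68) lie in the upper part, *Ror2* (0.01) in the middle, and *Fzd2* (0.95) in the last bin.

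Outside the pathway, the protein-coding genes of at least 5 CPM most like *Kif26b* were *Casc3* (r = 0.99), *Numb* (0.98), *Ttyh3* (0.98), *Aqp1* (0.98) and *Med22* (0.98). CASC3 is part of the exon junction complex, NUMB is an inhibitor of Notch signalling, AQP1 is a water channel and MED22 is a Mediator subunit. *Casc3* was at 73.2 to 74.5 CPM with EtOH and 60.6 to 63.2 CPM with 4-OHT, a far smaller difference than that of *Kif26b*. Its log2 fold change at day 6 was −0.27 (SE 0.16, adjusted p 0.674 by edgeR). At the other end, *Casp8* and *Lpcat4* each had an r of −0.996. Leaving out any library changed which genes came first, with 0 or 1 of the 5 still among the first 5.

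Day was examined last, with treatment as a term. The library names in the sample descriptions come from another number range at day 4 than at day 6, so day and whatever that range stands for cannot be told apart. At day 4, 24195 (4-OHT) and 26521 (EtOH) genes had counts, against 19522 to 20622 at day 6. Unassigned reads made up 6.70% (4-OHT) and 6.19% (EtOH) of entries at day 4 and 2.63% to 3.76% at day 6. The part of this wider detection in the day 4 counts of *Ror1* and *Kif26a* was not tested. Of the 9 genes tested (all but *Ror1*), 0 passed by edgeR, beside 0.543% of 16031 genes (0.218% lower at day 6, 0.324% higher), while 2 had an unadjusted p under 0.05, beside 13.2% of all genes, and 1 passed by DESeq2, beside 2.2% of all genes by that tool. *Celsr1* came nearest, at −1.02 for day 6 over day 4 on the log2 scale (SE 0.21, adjusted p 0.0822, edgeR). It passed with DESeq2 (adjusted p 0.00369), without a filter on low counts (6.26e-07, edgeR, which then called 2.62% of all genes) and without EtOH replicate 2 of day 6 (0.0177, edgeR). Its relative *Celsr2*, named after its values were seen, was the 1 gene of the wider list that passed by edgeR, at −0.90 (SE 0.16, adjusted p 0.0455), with 27.1, 38.2, 26.5 and 22.0 CPM at day 6 against 56.9 and 49.2 CPM at day 4. The *Celsr2* call was lost without EtOH replicate 1 (adjusted p 0.0584), 4-OHT replicate 1 (0.12) or 4-OHT replicate 2 (0.108) of day 6, by edgeR. *Kif26b* itself had a day difference of 0.09 (SE 0.50), with an adjusted p of 0.953 by edgeR. For the interaction of treatment and day, 0 of the 9 genes passed by edgeR or DESeq2, beside 0% of all genes by edgeR. Of the 9, 0 had an unadjusted p under 0.05, beside 1.83% of all genes.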

How the data were processed

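Counts were analysed for 6 libraries of sorted Lgr5-GFP-positive organoid cells, grouped by the treatment and day in their titles. The deposited files, 1 for each library, hold whole-number read counts per gene, not normalized. STAR and the build mm39 are named in the submitters' processing notes. The annotation release and strand setting are not given in the sources used here. Summary lines (unmapped, multimapping, unassigned, ambiguous) held 19.3% to 26.7% of entries and stayed out of library sizes and tests. Reads shared by several genes are in those lines, so overlapping genes may be undercounted, depending on the strand setting. Symbols, exon lengths and positions are from GENCODE M39 (GRCm39), which matched 56323 of 56884 identifiers.

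Tests used edgeR 4.0.16 in R 4.3.3 (glmQLFit and glmQLFTest, TMM scaling, filterByExpr), with Benjamini-Hochberg adjustment over all genes tested and a threshold of 0.05. The filter used treatment groups for the treatment tests, and the 4 groups of treatment and day for the day and interaction tests, which therefore held more genes. SE was derived from the F statistic (size of the log2 fold change over the root of F), and intervals use that SE. Log2 CPM and day 4 fold changes used a prior count of 2. Exact intervals and the limit of 3 counts for a count of 0 cover counting error only. Replicates of 1 group differed by more than sampling noise (chi-square per degree of freedom 23.6 and 16.5). The tests were checked on simulated data. Alternatives were DESeq2 1.42.0 in place of edgeR, its median-of-ratios scaling, dropping the filter or setting it at 1 CPM, a replicate block, robust dispersions, other treatments of day, other prior counts, Spearman correlation, and each library left out in turn.

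The genes, lists and tests were chosen with earlier results of these data known. All 10 genes are named. From the wider list, genes called in a treatment test and the most abundant gene of each role are named by rule, and others after their values were seen. The 5 genes most like *Kif26b* and the 3 least like it, of at least 5 CPM, are also named, except 1 that is not reported here.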

Additional observations from a re-analysis of the deposited data

How the results depend on the processing

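The fall of *Kif26b* kept its direction under every alternative run. At day 6 its log2 fold change was −6.08 to −3.27 without 1 library each, and it lost its call without either EtOH replicate (0 of the 10 genes called, against 1). With 1 library left in an arm, that library is assumed to vary like the other group. The labels do not say that replicate numbers pair the day 6 libraries, and deviations of same-numbered libraries had a correlation of 0.22 across genes. With the replicate block the *Kif26b* value was −4.09 at day 6 and −4.13 over both days, the wider list had 1 call at day 6 (*Fzd2*) in place of 0, and 816 genes were called in place of 302. No other treatment call among the 10 genes and the wider list changed with the block. All genes called at day 6 numbered 725 without a filter, 505 by DESeq2 and 172 to 473 without 1 library. Over both days 560 became 1150 without a filter, 856 by DESeq2, 333 without a day term and 305 to 637 without 1 library. The wider list had 0 or 1 call without 1 library, at day 6 (*Rock2*, higher by 0.80, without EtOH replicate 2) and over both days. For day 6 against day 4, 1 of the 10 genes (*Celsr1*) was called with no filter, by DESeq2 or without EtOH replicate 2, against 0. Of the 5 genes most like *Kif26b*, 1 stayed among the first 5 by Spearman correlation and 0 to 1 without 1 library. Some small differences turned sign. Without 1 library, *Celsr1* at day 6 ranged from −0.5987 to 0.1111, *Ror2* from −0.06438 to 0.03487 at day 6 and from −0.0137 to 0.05393 over both days. For day, *Vangl1* was −8.903e-05 with median-of-ratios scaling, −0.0003113 by DESeq2 and −0.04613 to 0.06542 without 1 library, *Prickle1* ranged from −0.4008 to 0.2523 and *Kif26b* from −0.1701 to 0.2385. The cause was not tested. Robust dispersions, added after seeing the data, changed no treatment call among them. Depth limits statements on *Ror1*, *Kif26a* and *Wnt5a*, which had at most 13 counts in a library.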
